A study of Saccharomyces cerevisiae with 18 samples.

Results

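The comparison described here asks how far the transcriptional response of budding yeast to salt depends on HOG1. It uses 12 of the 18 libraries of the series, all from experiment 2, in 4 groups of 3 biological replicates: HOG1-KO cells in salt, HOG1-KO cells without salt (basal), WT cells in salt and WT cells without salt. WT is BY4741, a laboratory haploid, and HOG1-KO is a BY4741 strain whose HOG1 gene was replaced by a KAN cassette. Both strains were grown in YPD to exponential phase, and the salt groups were taken 15 min after NaCl was added to 0.4 M. The labels do not say how many independent deletion clones were used. For each gene the salt response is the log2 change of salt over basal cells within a strain, and the quantity tested is the response of HOG1-KO minus the response of WT. A negative difference therefore means a smaller rise, or a larger fall, in HOG1-KO. All genes were eligible, and 6107 of the 7126 listed identifiers had enough counts to be tested, of which 5157 carry a gene symbol.

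Hog1 is the stress-activated MAP kinase of the high osmolarity glycerol pathway. When external osmolarity rises, membrane sensors of the Sln1 and Sho1 branches activate the kinase Pbs2, which activates Hog1; Hog1 then enters the nucleus and acts through transcription factors such as Hot1, Sko1, Msn2 and Msn4 on genes for glycerol production and stress protection. Glycerol is the compatible solute with which the cell regains turgor. The Sho1 branch shares the kinases Ste20 and Ste11 with the mating and filamentous growth pathways, and cells without Hog1 are known to activate mating genes under osmotic stress.

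The libraries held 11135883 to 16527859 counts each. HOG1 itself (YLR113W, chromosome XII, 371620 to 372927 in R64) had 0, 0 and 0 counts in HOG1-KO salt libraries, 0, 1 and 0 in HOG1-KO basal libraries, 4227, 4808 and 3318 in WT salt libraries and 3195, 2559 and 2997 in WT basal libraries, so every library matched its genotype label. LEU2, MET17 and URA3, which BY4741 lacks, had at most 2 counts in any of the 12 libraries, while HIS3, of which BY4741 carries a partial deletion, had 397 to 1167. The genes of a MATa cell were expressed (STE2 at 10275 to 40865 counts) and of the MATalpha genes MF(ALPHA)1 had 1 to 9 counts, MF(ALPHA)2 20 to 153, STE3 36 to 338 and SAG1 782 to 1741. STE3 had 104 to 338 counts in HOG1-KO libraries and 36 to 76 in WT libraries. Within the WT groups, salt replicate 2 and basal replicate 1 deviated from the remaining libraries. The root mean square log2 distance of WT salt replicate 2 from the others was 0.58 and 0.55, against 0.23 between the others, and that of WT basal replicate 1 was 0.47 and 0.44, against 0.24. Their deviations ran alike (correlation 0.86 across 5147 genes, which are not independent replicates), and results that rest on them are given with and without them. Without both, a choice made after seeing the data, the count of called differences grew from 599 to 1248 genes, and 589 of the 599 were shared. In bulk samples, fewer responding cells and less RNA per cell cannot be told apart.

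The upstream sequences of 6 genes that the results turn on are shown first, as printed in the RefSeq R64 genome on the strand of the gene, from base 300 to base 101 before the start codon. The windows lie at chrIV:1507705-1507904 on the plus strand for STL1, chrVII:654334-654533 on the plus strand for CTT1, chrXIII:600973-601172 on the minus strand for ALD3, chrIV:60506-60705 on the minus strand for HBT1, chrXIII:181176-181375 on the minus strand for PRM6 and chrIII:71503-71702 on the plus strand for FUS1. STL1, CTT1, ALD3 and HBT1 had some of the most negative differences, and their capitals mark the letters of the stress response element bound by Msn2 and Msn4 (AGGGG or its complement CCCCT). PRM6 and FUS1 had higher responses, and their capitals mark the pheromone response element bound by Ste12 (TGAAACA). The genes were chosen after their values were seen.
STL1: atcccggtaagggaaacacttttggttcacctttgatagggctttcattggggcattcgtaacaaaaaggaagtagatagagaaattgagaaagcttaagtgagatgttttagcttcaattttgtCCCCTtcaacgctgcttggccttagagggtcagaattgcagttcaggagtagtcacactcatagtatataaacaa
CTT1: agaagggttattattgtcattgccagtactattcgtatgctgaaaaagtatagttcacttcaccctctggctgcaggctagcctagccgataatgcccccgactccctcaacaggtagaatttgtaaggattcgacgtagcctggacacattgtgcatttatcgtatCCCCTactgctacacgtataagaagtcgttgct
ALD3: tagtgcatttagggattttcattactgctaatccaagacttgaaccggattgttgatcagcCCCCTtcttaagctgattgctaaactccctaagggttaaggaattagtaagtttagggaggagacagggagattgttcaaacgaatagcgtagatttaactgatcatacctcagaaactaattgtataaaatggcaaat
HBT1: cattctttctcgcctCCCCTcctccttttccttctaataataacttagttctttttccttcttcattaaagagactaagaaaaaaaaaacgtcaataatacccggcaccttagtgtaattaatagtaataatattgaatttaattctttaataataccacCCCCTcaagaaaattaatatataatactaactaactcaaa
PRM6: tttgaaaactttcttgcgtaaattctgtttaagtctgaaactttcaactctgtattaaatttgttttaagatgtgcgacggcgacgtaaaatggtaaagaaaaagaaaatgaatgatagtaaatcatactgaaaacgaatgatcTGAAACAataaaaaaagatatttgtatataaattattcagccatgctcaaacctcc
FUS1: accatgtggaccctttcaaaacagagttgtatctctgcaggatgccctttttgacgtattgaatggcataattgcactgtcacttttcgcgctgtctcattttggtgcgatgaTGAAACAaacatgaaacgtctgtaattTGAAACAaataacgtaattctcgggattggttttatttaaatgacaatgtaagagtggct

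In these windows STL1, CTT1 and ALD3 each had 1 match, HBT1 had 2, PRM6 had 1 and FUS1 had 2. How often these letters occur among all promoters is given with the gene classes below.

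Salt changed a similar number of genes in the strains, and the responses differed for a smaller set. By edgeR's quasi-likelihood test with Benjamini-Hochberg adjustment over 6107 genes, called where the adjusted p is under 0.05, the difference of the responses was called for 599 genes (9.81% of those tested), with 320 lower (5.24%) and 279 higher (4.57%) in HOG1-KO. The salt response itself was called for 54.3% of genes in HOG1-KO (28.8% rose and 25.6% fell) and for 57.2% in WT (30.1% rose and 27.2% fell). The median difference over all genes was 0.00 on the log2 scale, with a median standard error of 0.27. With the replicate number within each strain as a block, 148 differences were called higher and 212 lower. Among the 320 lower responses the median difference was -1.39, and 89 were lower by at least 2 and 23 by at least 4 on the log2 scale. Among the 279 higher responses the median was 1.14, and 29 reached 2 and 3 reached 4. Lower responses thus ran to larger sizes than higher ones.

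**Figure D1:**
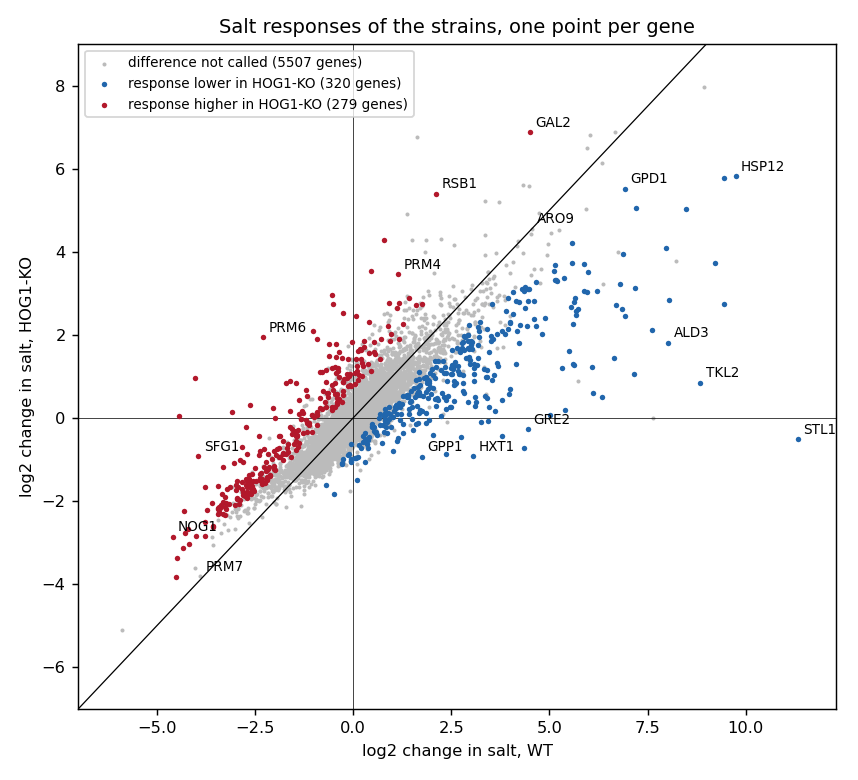
Each point is a gene, with its log2 change in salt in WT cells on the x axis and in HOG1-KO cells on the y axis; blue marks the 320 genes with a lower and red the 279 genes with a higher response in HOG1-KO, grey the other tested genes except HOG1, and the diagonal marks equal responses. Blue points lie to the right of the diagonal up to STL1, at -0.51 in HOG1-KO and 11.32 in WT, and red points include many genes that fell less in HOG1-KO.

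Most lower responses were rises that remained in HOG1-KO but were smaller. Of the 320 genes, 201 rose in both strains, 82 rose in WT with no called change in HOG1-KO, and 11 fell in HOG1-KO but rose in WT. A further 25 fell in HOG1-KO without a called change in WT, and the last 1 fell in both, further in HOG1-KO. Of the 279 higher responses, 137 were falls in both strains that were smaller in HOG1-KO, 47 were WT falls with no called change in HOG1-KO, 19 rose in HOG1-KO but fell in WT, 56 rose in HOG1-KO with no called change in WT, and 20 rose in both, further in HOG1-KO. Basal levels were called different between the strains for 0.982% of genes, with 29 higher and 31 lower in HOG1-KO, and salt levels for 25.2%, with 783 higher and 759 lower. Without both deviating WT libraries the basal counts were 352 and 701. Without WT basal replicate 1 alone they were 33 and 45, and without WT salt replicate 2 alone 49 and 75. Why the counts grew without both was not tested. In the analysis of all 12 libraries, 295 of the 320 lower responses had a lower level in HOG1-KO salt cells with no called basal difference, as had 258 of the 279 higher responses in the other direction. For 14 of the lower responses the basal level was lower as well. Without WT salt replicate 2 alone, the number of higher responses was 589 in place of 279, and that of smaller falls 284 in place of 137.

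Glycerol synthesis starts from a glycolytic intermediate, which the glycerol-3-phosphate dehydrogenases Gpd1 and Gpd2 reduce and the phosphatases Gpp1 and Gpp2 then convert to glycerol. Of these 4 genes, 3 had a lower response in HOG1-KO, where 5.24% of all tested genes had one. The 3 did not differ to the same extent. GPD1 stood at 1527, 1298 and 1233 CPM (counts scaled to a library's TMM-adjusted total) in HOG1-KO salt libraries and 29.0, 30.3 and 29.2 in HOG1-KO basal libraries, against 13768, 8866 and 13945 in WT salt libraries and 74.5, 122 and 104 in WT basal libraries. The 4 groups did not overlap, and GPD1 rose without HOG1, from a basal level that was itself lower (log2 difference from WT -1.76 ± 0.22, edgeR adjusted p = 0.000801). Its response was 5.52 ± 0.21 in HOG1-KO and 6.93 ± 0.21 in WT (log2 ± SE), a difference of -1.41 ± 0.30 (edgeR adjusted p = 0.00663). With the replicate number within each strain as a block, the GPD1 difference was not called (edgeR adjusted p = 0.0624).

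GPP2 reached 197, 160 and 151 CPM in HOG1-KO salt libraries over 11.7, 10.7 and 10.8 in HOG1-KO basal libraries, against 2665, 3107 and 2646 in WT salt libraries over 22.6, 23.6 and 25.1 in WT basal libraries. The difference was -2.95 ± 0.22 (edgeR adjusted p = 3.72e-07). GPP1, the other phosphatase, moved in opposite directions. It stood at 619, 542 and 556 CPM in HOG1-KO salt libraries, below its 1093, 1207 and 981 in HOG1-KO basal libraries, and at 6159, 5699 and 5552 in WT salt libraries, above its 1788, 1752 and 1613 in WT basal libraries. None of the 4 groups overlapped. The change was -0.93 ± 0.15 in HOG1-KO and 1.76 ± 0.15 in WT, both called (edgeR adjusted p = 0.000114 and 1.13e-07). GPD2, the dehydrogenase linked to redox balance under anaerobic growth, had a difference of 0.29 ± 0.28 that was not called, with a 95% interval from -0.30 to 0.89. Summed over the 4 genes, HOG1-KO salt libraries held 2440 to 2877 CPM and HOG1-KO basal libraries 1501 to 1818, against 17973 to 23052 in WT salt libraries and 2251 to 2514 in WT basal libraries.

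STL1, the glycerol-proton symporter that imports glycerol, had the most negative difference of all tested genes. It stood at 0.672, 1.08 and 1.46 CPM in HOG1-KO salt libraries and 1.504, 1.66 and 1.52 in HOG1-KO basal libraries, against 6107, 3665 and 5798 in WT salt libraries and 1.04, 4.47 and 1.08 in WT basal libraries. No rise was called in HOG1-KO (-0.51 ± 0.51, edgeR adjusted p = 0.412), and the difference was -11.83 ± 0.65. Of the 12 tested genes of glycerol uptake, export and breakdown, 4 had a lower and 1 a higher response, against 5.24% and 4.57% of all tested genes. DAK1, a dihydroxyacetone kinase, differed by -1.88 ± 0.23, YPR1, an aldo-keto reductase, by -1.16 ± 0.21, and GUT2, the mitochondrial glycerol-3-phosphate dehydrogenase, by -0.87 ± 0.22. The call for GUT2 was lost in 5 of 21 alternative analyses. The glycerol channel FPS1 and its regulators RGC1 and ASK10 had differences of -0.03, -0.22 and -0.11, none of them called. The higher response was that of GUP2, at 1.30 ± 0.35, lost in 9 of the 21 alternatives.

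**Figure D2:**
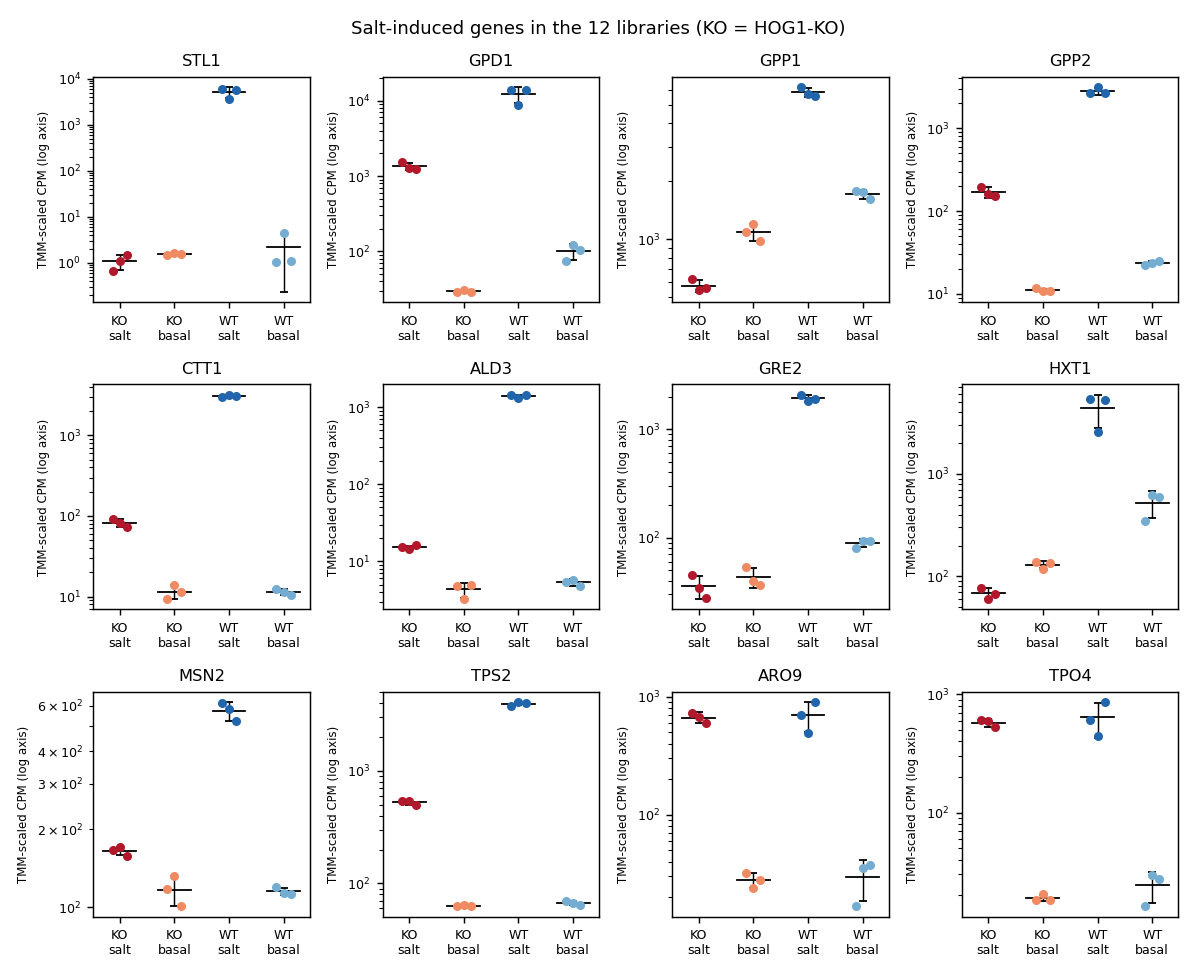
Each panel shows a gene in the 12 libraries as TMM-scaled CPM on a log axis, with points for libraries, a line for the group mean and bars for the SD (n = 3), in the order HOG1-KO salt, HOG1-KO basal, WT salt and WT basal. In HOG1-KO salt libraries STL1 and GRE2 lie near their HOG1-KO basal values, GPP1 and HXT1 lie below them, GPD1, GPP2, CTT1, ALD3, MSN2 and TPS2 lie above them but below WT salt libraries, and ARO9 and TPO4 reach like levels in both strains.

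The list of osmostress genes with reported Hog1 dependence was drawn up from published knowledge, with earlier results of these data known. Neither its direction nor its share of called genes is therefore independent evidence. Of its 24 tested members, 22 had a lower and 0 a higher response, against 5.24% and 4.57% of all tested genes. The median difference was -3.24, against 0.00 over all genes. The median response was 2.102 in HOG1-KO and 4.62 in WT, and all 24 stood lower in HOG1-KO salt cells, as did 12.4% of all tested genes. Of the 24, 17 rose in HOG1-KO, 5 had no called change there and 2, GPP1 and HXT1, fell. GRE2, a methylglyoxal reductase, stood at 45.2, 34.3 and 27.8 CPM in HOG1-KO salt libraries and 53.7, 39.6 and 36.4 in HOG1-KO basal libraries, against 2087, 1815 and 1903 in WT salt libraries and 80.1, 93.6 and 92.7 in WT basal libraries. Its HOG1-KO salt and basal libraries overlapped, and the difference was -4.72 ± 0.28 (edgeR adjusted p = 2.58e-08).

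CTT1, the cytosolic catalase, kept a part of its rise. It reached 91.9, 82.1 and 73.3 CPM in HOG1-KO salt libraries over 9.40, 14.0 and 11.3 in HOG1-KO basal libraries, against 3003, 3198 and 3041 in WT salt libraries over 12.5, 11.6 and 10.5 in WT basal libraries. The basal groups overlapped, while the salt groups were far apart, and the difference was -5.22 ± 0.24. HSP12, a small membrane-associated stress protein, reached 110, 89.2 and 67.03 CPM in HOG1-KO salt libraries over 1.19, 1.57 and 1.94 in HOG1-KO basal libraries, against 1155, 1688 and 1239 in WT salt libraries over 1.39, 2.29 and 1.23 in WT basal libraries. Its response without HOG1 was still among the largest (5.82 ± 0.29, against 9.74 ± 0.29 in WT), and the difference was -3.92 ± 0.41. The hydrophilin gene SIP18 differed by -4.23 ± 0.49 and the sodium pump gene ENA1 by -3.10 ± 0.42. The differences of HOR7 (-0.50 ± 0.45) and of the peroxiredoxin gene AHP1 (-0.34 ± 0.27) were not called.

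HXT1, a low-affinity glucose transporter, was lower in HOG1-KO with and without salt. It stood at 77.9, 60.5 and 67.5 CPM in HOG1-KO salt libraries and 138, 119 and 134 in HOG1-KO basal libraries, against 5317, 2568 and 5227 in WT salt libraries and 347, 627 and 596 in WT basal libraries. The basal difference was -2.01 ± 0.26 and the difference of responses -3.99 ± 0.37 (edgeR adjusted p = 0.00174 and 5.43e-06). WT salt replicate 2 and WT basal replicate 1, the libraries that stood apart, were the lowest of their groups. HXT5 differed by -3.87 ± 0.58, while GAL2, the galactose permease, and HXT3 had higher responses (2.37 ± 0.53 and 1.53 ± 0.36), that of HXT3 not being called with the replicate number as a block. Over the 15 tested hexose transporters and sensors 2 responses were lower and 2 higher, against 5.24% and 4.57% of all tested genes. Without both deviating WT libraries these counts became 4 and 3. Hexose transporters share sequence, so reads may be split among them.

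General stress genes, most of them targets of Msn2 and Msn4, were also largely lower in response. Of 35 tested, 29 had a lower and 0 a higher response, against 5.24% and 4.57% of all tested genes. The median difference was -2.17, with medians of 2.28 in HOG1-KO and 4.80 in WT. The list shares members with the osmostress list (CTT1, HSP12, ALD3 and TKL2 among them). It also shares members with lists below, such as TPS1, TPS2 and PGM2, so these counts are not separate results. In HOG1-KO 32 of the 35 still rose, and in WT 34. Their summed level was 6544 to 7697 CPM in HOG1-KO salt libraries and 1188 to 1354 in HOG1-KO basal libraries, against 35568 to 40687 in WT salt libraries and 1327 to 1469 in WT basal libraries. ALD3, an aldehyde dehydrogenase, reached 15.2, 14.6 and 16.1 CPM in HOG1-KO salt libraries over 4.76, 3.23 and 4.98 in HOG1-KO basal libraries, against 1419, 1301 and 1427 in WT salt libraries over 5.43, 5.78 and 4.76 in WT basal libraries. HBT1, a substrate of the ubiquitin-like protein Hub1, reached 26.8, 30.6 and 26.05 CPM over 20.6, 20.1 and 18.0 in HOG1-KO, against 1064, 963 and 1189 over 11.2, 11.7 and 16.9 in WT. Salt levels lay far apart and the differences were -6.22 ± 0.25 for ALD3 and -5.83 ± 0.25 for HBT1. The transketolase gene TKL2 differed further, by -7.99 ± 0.48, but at a HOG1-KO level of 0.564 to 1.75 CPM. Not called were GLK1 (-1.04 ± 0.37), SOD2 (-0.49), GPX1 (-0.27), GTT1 (-0.27), YGP1 (-0.24) and SDS23 (0.17).

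Trehalose is a storage sugar that also protects proteins and membranes. All 7 tested genes of its metabolism rose in both strains and had a lower response in HOG1-KO, where 5.24% of all tested genes had one. TPS2, the trehalose-6-phosphate phosphatase, stood at 540, 543 and 498 CPM in HOG1-KO salt libraries and 63.5, 64.3 and 62.3 in HOG1-KO basal libraries, against 3810, 4070 and 4034 in WT salt libraries and 69.6, 67.3 and 63.6 in WT basal libraries. Its basal groups overlapped and its response differed by -2.84 ± 0.20 (edgeR adjusted p = 1.29e-07). The synthase gene TPS1 differed by -2.02 ± 0.24 and the trehalase gene NTH1, which degrades trehalose, by -0.81 ± 0.21, so genes of synthesis and of breakdown were both on the lower side. Of 16 glycogen genes 7 had a lower response, led by the phosphoglucomutase gene PGM2 at -3.33 ± 0.23. Tested against a 1.5-fold difference, 3 of the 16 were called, and likewise 3 with the block.

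Other metabolic lists held some lower responses each, where 5.24% of all tested genes had a lower response. Of 6 aldehyde dehydrogenases 4 were lower, with ALD4, the mitochondrial enzyme, at -4.11 ± 0.28 and ALD6, the main cytosolic enzyme, at -3.45 ± 0.27; the rise of ALD6 in HOG1-KO was not called (0.17 ± 0.19, edgeR adjusted p = 0.488). Of 13 pentose phosphate genes 4 were lower, namely the minor isozyme genes TKL2, NQM1, SOL4 and SOL1, while TKL1, TAL1, GND1 and SOL3 had differences of 0.01, 0.11, 0.17 and 0.09 that were not called. Of 24 glycolysis genes 4 were lower (PDC6, PFK27, HXK1 and PYK2, the last lost in 11 of the 21 alternatives), and 7 without both deviating WT libraries, in which glycolysis genes lay at a median of -0.91 (WT salt replicate 2) and -0.66 (WT basal replicate 1) below the other WT libraries on the log2 scale. Chaperone genes were lower in 8 of 26 cases. HSP42 differed by -2.17 ± 0.35, HSP26 by -1.66 and HSP104 by -1.40 ± 0.26, whereas the differences of SSA1 (-0.38) and SSE2 (-0.49) were not called. Of 13 genes for hydrophilins and eisosome proteins 9 were lower, among them FMP45 (-5.20 ± 0.34), PUN1 (-2.41 ± 0.31) and the eisosome core gene PIL1 (-1.79 ± 0.28). The proteasome list held 0 called differences among 32 genes, and 7 lower ones without both deviating libraries.

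**Figure D3:**
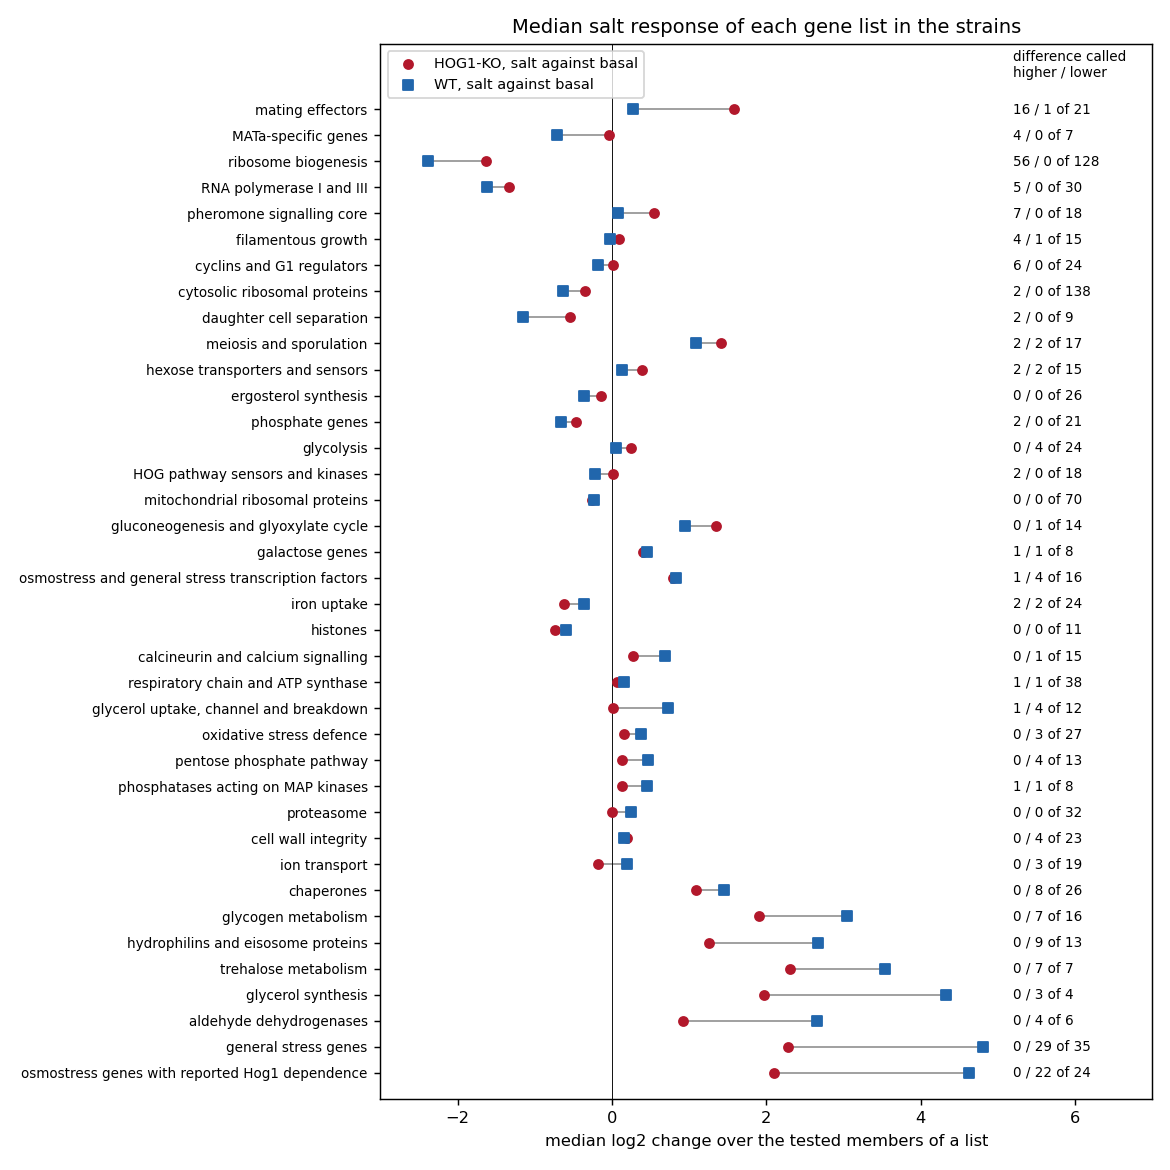
Each row is a gene list, with the median log2 change in salt over its tested members in HOG1-KO (red circles) and in WT (blue squares), sorted by the median difference; the numbers at the right give the members with a higher and a lower response out of those tested. Mating effectors lie at the top with 16 higher and 1 lower of 21, and osmostress genes at the bottom with 0 higher and 22 lower of 24.

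Of 18 genes of the HOG pathway itself, from sensors to kinases, 0 had a lower response and 2 a higher one. Over all tested genes the shares were 5.24% lower and 4.57% higher, so the list was near them. The 2 higher responses were those of the mucin-like sensor gene MSB2 (1.26 ± 0.29) and the kinase gene SSK22 (1.02 ± 0.25). Neither was called when tested against a 1.5-fold difference or with the block. PBS2, which activates Hog1, differed by -0.56, with a 95% interval from -0.97 to -0.16. Of 8 phosphatases that act on MAP kinases, 1 had a lower and 1 a higher response, a list too small to compare with those shares. PTP3, a tyrosine phosphatase acting on Hog1 and Fus3, stood at 45.3, 50.1 and 52.3 CPM in HOG1-KO salt libraries and 55.4, 58.7 and 49.2 in HOG1-KO basal libraries, against 173, 199 and 149 in WT salt libraries and 89.8, 64.4 and 61.9 in WT basal libraries. It rose in WT alone, with a difference of -1.41 ± 0.23 (edgeR adjusted p = 0.000776). PTP2, its paralog, rose in both strains (1.24 ± 0.18 in HOG1-KO and 1.35 ± 0.18 in WT), and the interval of its difference ran from -0.65 to 0.43. MSG5, the dual-specificity phosphatase that acts on Fus3 and Slt2, had a higher response (1.13 ± 0.20).

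Among 16 transcription factors of the osmotic and general stress responses, 4 had a lower and 1 a higher response, against 5.24% and 4.57% of all tested genes. MSN2 stood at 166, 171 and 158 CPM in HOG1-KO salt libraries and 117, 131 and 100.4 in HOG1-KO basal libraries, against 617, 584 and 523 in WT salt libraries and 119, 114 and 112 in WT basal libraries. Its response differed by -1.82 ± 0.20 (edgeR adjusted p = 1.91e-05), while that of its paralog MSN4 had a difference of 0.50 ± 0.18 that was not called. CIN5, which encodes the bZIP factor Yap4, reached 21.5, 24.2 and 20.1 CPM over 16.8, 17.7 and 14.4 in HOG1-KO, against 169, 260 and 195 over 20.4, 11.1 and 13.1 in WT. Its rise in HOG1-KO was not called (0.43 ± 0.21, edgeR adjusted p = 0.0994). USV1 and GIS1, both factors of nutrient and stress control, differed by -2.21 ± 0.23 and -1.17 ± 0.23. HOT1 and SKO1, which encode factors among those through which Hog1 acts, had differences of 0.29 and -0.26 that were not called. Their 95% intervals ran from -0.29 to 0.87 and from -0.65 to 0.14. SMP1, a MADS-box factor, had a higher response (1.01 ± 0.27), lost in 8 of the 21 alternatives.

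Mating genes made up the opposite pole. Of 21 mating effectors, 16 had a higher and 1 a lower response, against 4.57% and 5.24% of all tested genes. The median difference was 1.29, with medians of 1.58 in HOG1-KO and 0.27 in WT. Tested against a 1.5-fold difference, 9 were called higher. The summed level of the list was 10661 to 10971 CPM in HOG1-KO salt libraries and 5667 to 6240 in HOG1-KO basal libraries. In WT it was 2896 to 4235 in salt libraries and 3817 to 5527 in basal libraries. In basal cells 7 of the 21 were already higher in HOG1-KO (0.475% of all tested genes were). PRM6, a potassium transporter gene of the pheromone-regulated family, stood at 74.8, 66.8 and 96.1 CPM in HOG1-KO salt libraries and 19.4, 16.6 and 25.9 in HOG1-KO basal libraries, against 1.94, 1.90 and 1.51 in WT salt libraries and 10.3, 6.55 and 9.52 in WT basal libraries. The groups ordered without overlap, with the salt groups at both ends. Its log2 change was 1.94 ± 0.20 in HOG1-KO and -2.30 ± 0.27 in WT, a difference of 4.24 ± 0.33 (edgeR adjusted p = 4.84e-07).

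PRM4, another pheromone-regulated membrane protein gene, reached 296, 295 and 296 CPM in HOG1-KO salt libraries over 28.1, 25.5 and 26.8 in HOG1-KO basal libraries, against 45.8, 42.5 and 35.9 in WT salt libraries over 22.6, 16.5 and 17.01 in WT basal libraries. It rose in both strains, further in HOG1-KO (2.32 ± 0.21). AGA1, the anchor subunit of a-agglutinin, stood at 4023, 3862 and 3840 CPM in HOG1-KO salt libraries and 1789, 1782 and 1891 in HOG1-KO basal libraries, against 849, 419 and 856 in WT salt libraries and 843, 1357 and 1632 in WT basal libraries. The HOG1-KO salt libraries lay above all others, with WT salt replicate 2 the lowest, and the difference was 1.95 ± 0.37 (edgeR adjusted p = 0.00265). FUS1, a membrane protein needed for cell fusion and the classic reporter of pheromone signalling, named here after its values were seen, reached 460, 507 and 507 CPM over 71.3, 78.8 and 72.7 in HOG1-KO, against 133, 129 and 141 over 41.1, 43.9 and 47.7 in WT. Its difference was 1.12 ± 0.18. The single lower response was that of PRM10 (-5.52 ± 0.34), whose annotation overlaps YJL107C by 4 bases; YJL107C differed by -4.86, and reads of these genes may not be separable.

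Of 18 core genes of pheromone signalling, 7 had a higher and 0 a lower response, against 4.57% and 5.24% of all tested genes. STE12, the transcription factor of the pathway, stood at 461, 455 and 477 CPM in HOG1-KO salt libraries and 155, 142 and 156 in HOG1-KO basal libraries, against 141, 129 and 145 in WT salt libraries and 125, 120 and 135 in WT basal libraries. HOG1-KO salt libraries stood apart from the other groups, and the difference was 1.496 ± 0.18 (edgeR adjusted p = 4.55e-05). The MAP kinase gene FUS3 differed by 1.35 ± 0.19, the receptor gene STE2 by 1.48 ± 0.31 and the cell cycle inhibitor gene FAR1 by 2.15 ± 0.22. FAR1 fell in both strains, to 104, 120 and 129 CPM in HOG1-KO salt libraries and to 22.4, 21.5 and 17.9 in WT salt libraries, against basal values of 175 to 207 in HOG1-KO and 123 to 168 in WT. Upstream components shared with the HOG pathway had differences near zero that were not called (STE11 -0.00, STE50 -0.20, STE20 0.26).

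**Figure D4:**
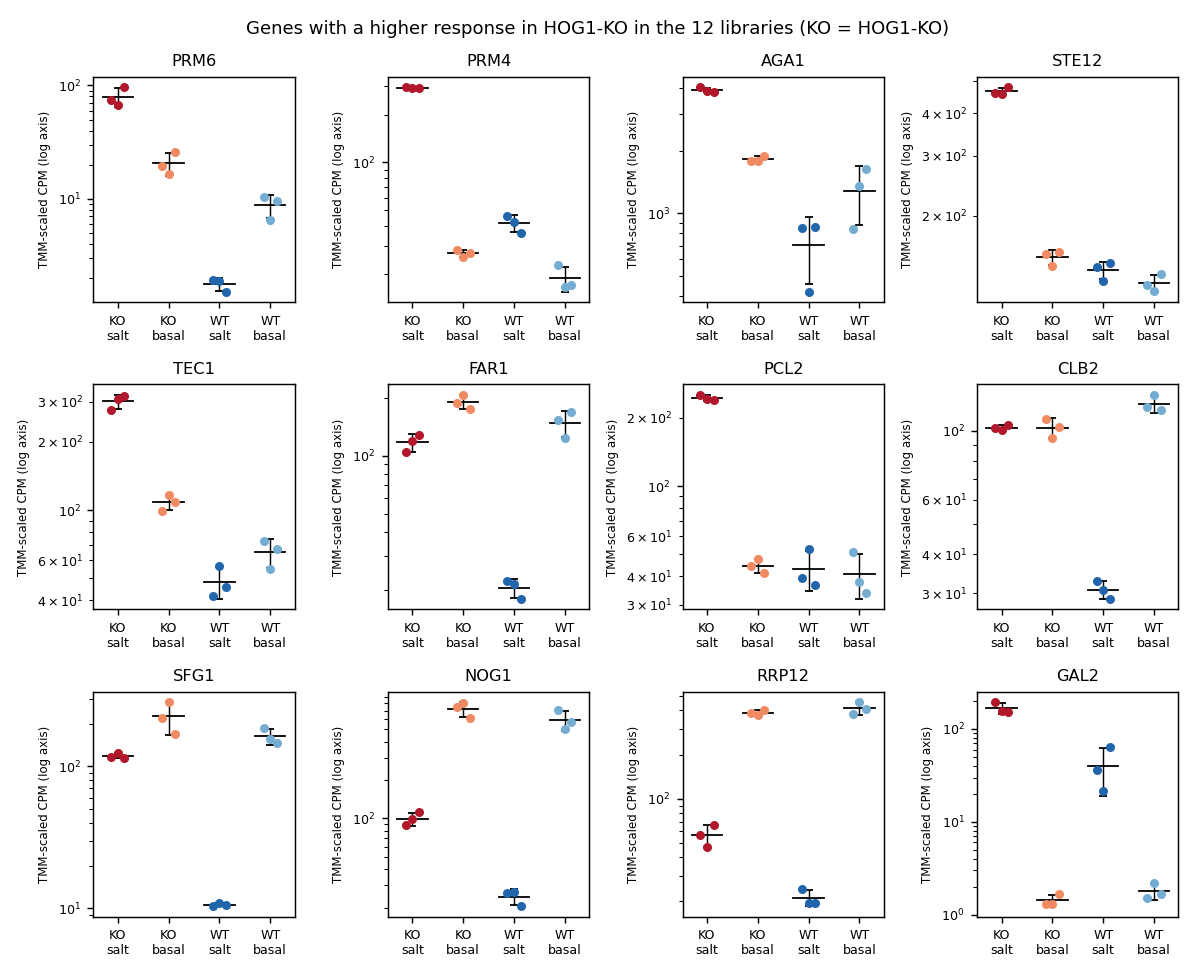
Each panel shows a gene in the 12 libraries as TMM-scaled CPM on a log axis, with points for libraries, a line for the group mean and bars for the SD (n = 3), in the order HOG1-KO salt, HOG1-KO basal, WT salt and WT basal. PRM6, AGA1, STE12, TEC1 and PCL2 are highest in HOG1-KO salt libraries, whereas FAR1, CLB2, SFG1, NOG1 and RRP12 are lowest in WT salt libraries.

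Of 15 genes of filamentous growth 4 had a higher response and 1, the factor gene MGA1, a lower one (-2.27 ± 0.27). Over all tested genes 4.57% had a higher and 5.24% a lower response. TEC1, the partner of Ste12 at filamentation genes, stood at 277, 310 and 317 CPM in HOG1-KO salt libraries and 99.5, 117 and 109 in HOG1-KO basal libraries, against 41.8, 56.8 and 46.0 in WT salt libraries and 73.3, 54.8 and 67.6 in WT basal libraries. The WT groups overlapped and the HOG1-KO groups did not, and the difference was 1.91 ± 0.22. The largest differences of the list were those of RSB1 and SFG1, at 3.28 ± 0.48 and 3.02 ± 0.25. RSB1, counted among the 4, is a sphingoid base transporter gene, and SFG1 encodes a factor of superficial pseudohyphal growth. They differed in kind: RSB1 rose in both strains from a lower basal level in HOG1-KO (-2.45 ± 0.39), and SFG1 fell in both strains, to 116, 124 and 115 CPM in HOG1-KO salt libraries and to 10.4, 10.9 and 10.5 in WT salt libraries.

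Of 24 cyclins and G1 regulators 6 had a higher response and 0 a lower one, against 4.57% and 5.24% of all tested genes. Without WT salt replicate 2, 10 were higher. PCL2, a G1 cyclin of the kinase Pho85, stood at 253, 243 and 239 CPM in HOG1-KO salt libraries and 44.2, 48.0 and 41.6 in HOG1-KO basal libraries, against 39.6, 53.0 and 36.6 in WT salt libraries and 51.2, 37.6 and 33.8 in WT basal libraries. It rose in HOG1-KO alone, and the difference was 2.38 ± 0.24. CLB2, the main mitotic cyclin, had the other pattern, with 102, 101 and 104 CPM in HOG1-KO salt libraries and 109, 94.5 and 103 in HOG1-KO basal libraries, against 32.8, 30.7 and 28.7 in WT salt libraries and 119, 131 and 116 in WT basal libraries. It fell in WT, and its change in HOG1-KO was 0.00 ± 0.12, with a difference of 1.99 ± 0.17 (edgeR adjusted p = 1.47e-06). CLB1 (1.83 ± 0.21), HCM1 (1.14 ± 0.24), CDC20 (1.13 ± 0.20) and PCL1 (1.05) made up the rest of the 6. The replication licensing gene CDC6 differed by 1.69 ± 0.20. CLN1, CLN2 and CLN3 had differences of 0.86, 0.33 and -0.51 that were not called, and the histone list held 0 called differences among 11 genes.

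Genes of ribosome biogenesis fell in both strains, and less in HOG1-KO. Of 128 tested, 124 fell in HOG1-KO and 127 in WT, and the response was higher, a smaller fall, for 56 and lower for 0. Over all tested genes 4.57% had a higher and 5.24% a lower response. The medians of the list were -1.63 in HOG1-KO and -2.38 in WT, with a median difference of 0.79. The summed level was 7978 to 8993 CPM in HOG1-KO salt libraries and 26531 to 27733 in HOG1-KO basal libraries, against 4793 to 5809 in WT salt libraries and 24603 to 27538 in WT basal libraries. NOG1, a GTPase of the large subunit precursor, stood at 88.4, 98.1 and 111 CPM in HOG1-KO salt libraries and 744, 808 and 615 in HOG1-KO basal libraries, against 26.2, 26.5 and 20.4 in WT salt libraries and 711, 498 and 568 in WT basal libraries. The salt groups did not overlap, and the difference was 1.74 ± 0.25 (edgeR adjusted p = 0.000292). RRP12, an export factor of the pre-ribosome, differed by 1.53 ± 0.22. NOG2, whose annotation contains the small nucleolar RNA gene SNR191, differed by 2.08 ± 0.18. The deviating WT libraries were higher for this list, by a median of 0.46 (WT salt replicate 2) and 0.30 (WT basal replicate 1); without both, 92 responses were higher, and without WT salt replicate 2 alone 98. The number was 30 when libraries were scaled by total counts and 12 when tested against a 1.5-fold difference, and 28 with the block. It lay between 34 and 37 when HOG1-KO salt replicate 3, HOG1-KO basal replicate 1, HOG1-KO basal replicate 3 or WT salt replicate 3 was left out. The part of these libraries in the result was not tested.

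Of 30 subunits of RNA polymerase I and III and their factors, 5 had a higher response, where 4.57% of all tested genes had one. Among the 5 was RRN11, of the polymerase I core factor, at 2.097 ± 0.35. The count of 5 moved to 13 without both deviating WT libraries and to 2 when scaled by total counts or with the block. Of 138 cytosolic ribosomal protein genes 2 had a higher response (11 without both deviating libraries). With all libraries that is a smaller share than over all tested genes. The median difference of the 138 was 0.26, with medians of -0.36 in HOG1-KO and -0.64 in WT. The decrease of cytosolic ribosomal protein genes was called for 54 in HOG1-KO and for 108 in WT, counts that do not test the difference between the strains. The 70 mitochondrial ribosomal protein genes held 0 called differences, and the median difference was 0.05.

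Responses that were close in the strains were identified by the 95% interval of the difference. Of 2628 genes called in the same direction in both strains, 1591 had an interval within -1 to 1 on the log2 scale, 726 that rose and 865 that fell. Most were small changes, but 47 rose by at least 2 in WT. ARO9, an aromatic aminotransferase of amino acid catabolism, reached 732, 670 and 592 CPM over 32.3, 24.1 and 28.3 in HOG1-KO, against 704, 495 and 901 over 16.7, 35.7 and 37.6 in WT. The groups overlapped within each condition, the responses were 4.56 ± 0.27 in HOG1-KO and 4.55 ± 0.27 in WT, and the interval of the difference ran from -0.80 to 0.82. ARO10, the decarboxylase of the same catabolic pathway, had an interval from -0.44 to 0.56, and TPO4, a polyamine exporter gene, from -0.52 to 0.92. RCN2 and SSE2, a calcineurin regulator and an Hsp70 nucleotide exchange factor, were also close. Among falls, PRM7 fell to 7.73, 9.52 and 8.90 CPM in HOG1-KO salt libraries and to 16.6, 6.91 and 13.2 in WT salt libraries, with basal values of 108 to 135 in HOG1-KO and 137 to 235 in WT.

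Whether the share of lower responses depended on the size of the induction was examined with genes grouped by their change in experiment 1, whose 6 WT libraries, made with another kit (TruSeq), do not enter the comparison. Among genes that rose there by 1 to 2 on the log2 scale (568 genes), the median change in experiment 2 was 0.97 in HOG1-KO and 1.33 in WT, and 13.9% had a lower response. For genes that rose by 2 to 3 the share was 42.0%, for 3 to 4 it was 63.4%, for 4 to 5 it was 76.3%, and beyond 5 (51 genes) it was 76.5%, with medians of 3.03 in HOG1-KO and 6.33 in WT. Larger inductions thus went with larger gaps and with more calls. Among genes that fell the same order held: 8.91% of those that fell by 1 to 2 had a smaller fall, against 58.1% of the 31 genes that fell by 4 to 5, with medians of -1.96 in HOG1-KO and -3.15 in WT. The last group, beyond 5, held only 6 genes.

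**Figure D5:**
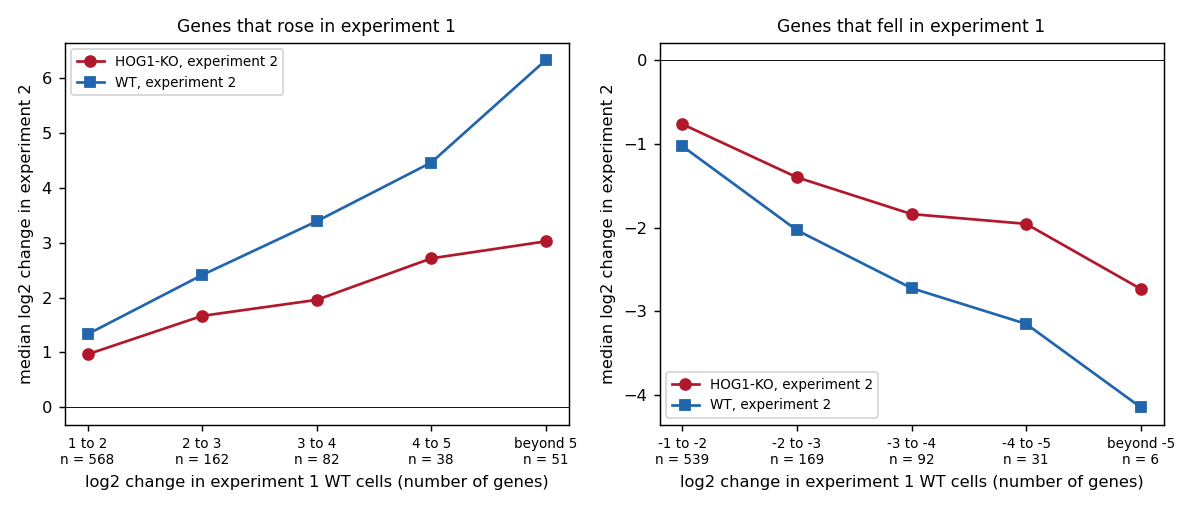
Genes are grouped by their log2 change in WT cells of experiment 1 (x axis, with the number of genes), and the lines join the median log2 change in experiment 2 in HOG1-KO (red circles) and WT (blue squares). The HOG1-KO medians lie nearer to 0 in every group, and the gap widens from 0.97 against 1.33 to 3.03 against 6.33 for genes that rose.

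The motifs shown in capitals at the start were counted on both strands in the 300 bases before the start codon of 5666 tested protein-coding genes, with overlapping matches counted. AGGGG was present in 22.5% of all these promoters, in 55.0% of those with a lower response in HOG1-KO and in 13.01% of those with a higher response. Within the lower responses the share was 65.5% for genes whose WT rise was smaller but still called in HOG1-KO (197 promoters) and 34.1% for genes whose rise was not called or turned into a fall (88 promoters). Genes that rose to a close extent in both strains had it in 28.9%. The median WT change of these close rises was 0.89, against 2.56 for all lower responses. The classes therefore also differ in the size of the WT change, and shares at like sizes were not compared. Among the printed sequences, STL1 is an example without and CTT1 an example with a remaining rise, both with 1 match. TGAAACA was present in 7.04% of all promoters, in 11.5% of those with a higher response and in 61.9% of the mating effectors, 13 of 21, as in the printed windows of PRM6 and FUS1. These shares describe letters, not bound sites, and no test was made of them.

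A lower response was more frequent among genes next to another gene with a lower response than among all genes. Neighbours here are tested genes that follow each other on the chromosome, and untested genes between them were skipped. Of 5676 genes with a tested neighbour in the annotation, 5.50% had a lower response, and among the 589 genes beside such a gene the share was 18.3%. For higher responses the shares were 4.74% and 8.12%. Of the 62 adjacent pairs with a lower response, 21 were divergent, 35 ran on the same strand and 6 were convergent, against 1463, 2734 and 1463 among all 5660 adjacent pairs. HBT1 and FMP45 lie on the same strand, 466 bases apart (-5.83 and -5.20). FIT1, a cell wall mannoprotein gene that fell in HOG1-KO (-0.87 ± 0.27) and rose in WT (2.37 ± 0.25), is divergent from STL1 across 3104 bases. HXT1, HXT5 and the gene PAL2 follow each other on chromosome VIII (-3.99, -3.87 and -2.76). Neighbouring genes are not independent, and where transcripts run into each other the counts may share reads; this was not tested.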

How the data were processed

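RNA was measured in 12 libraries of experiment 2, each a polyA-selected strand-specific CORALL library from a biological triplicate, sequenced as 50-base single reads in a single pool, per the labels' protocols. The authors deposited raw counts per gene; reads were aligned with HISAT2 2.1.0 and counted with featureCounts 1.5.1 on genome build R64, per the submitters' processing notes. The sources used here give no annotation release, strand setting, multi-mapping rule or use of molecular identifiers, so overlapping genes and close paralogs may share reads. Totals of 11135883 to 16527859 counts per library limit precision for weakly expressed genes.

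Counts were fitted with edgeR 4.0.16 (quasi-likelihood, TMM scaling, filterByExpr, robust dispersion) in R 4.3.3 over all 4 groups of 3, with the response of HOG1-KO minus the response of WT as the main contrast and Benjamini-Hochberg adjustment over 6107 genes at 0.05. Standard errors are Wald errors at the quasi-likelihood spread, and 95% intervals use the same errors. CPM values are TMM-scaled. On simulated counts for this contrast over 6107 genes with 200 changed, 48% of changes of size 1 and 91% of size 2 (log2) were recovered, and 11 unchanged genes were called. The simulated counts were drawn independently for each gene and library. They left out the deviations that WT libraries shared, so these rates may not hold for the real libraries. Same-numbered salt and basal libraries had deviation correlations of 0.23, 0.43 and 0.31 in HOG1-KO and -0.66, -0.65 and 0.71 in WT. The same-numbered basal library had the highest correlation for each HOG1-KO salt library, but in WT only for replicate 3. WT salt replicate 2 correlated most with basal replicate 1 (0.86), and WT salt replicate 1 with basal replicate 2 (0.56). WT salt replicate 1 also correlated with basal replicate 3 (0.46), and WT salt replicate 3 with basal replicate 2 (0.53). These values do not establish a pairing. The labels state none, so the main fit had no block. Changes of a call by the replicate block within strains are given beside the result, or counted among its lost calls. That block joined WT libraries 1 and 2 by number, whose deviations ran opposite, and a block by the WT libraries that correlated most was not fitted.

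The members and the 40 gene lists were chosen with earlier results of these data known. Named genes were the 12 largest differences each way at a mean log2 CPM of at least 3, up to 4 each way per list, all members of 5 pathway lists, HOG1, up to 8 opposite responses each way and 6 close responses each way; other genes are named to complete a count and were chosen after their values were seen. Alternatives were other scalings and filters, DESeq2 1.42.0, a test against a 1.5-fold difference, replicate blocks and leaving out libraries. Promoter letters and gene positions come from the RefSeq R64 genome. Figures were drawn with matplotlib 3.10.9.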

Additional observations from a re-analysis of the deposited data

Results flagged for a closer look

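Of the genes with opposite called responses, 11 with a lower and 19 with a higher response in HOG1-KO, the 8 largest differences each way are given here. For these 16 genes the difference itself was called by edgeR's quasi-likelihood test with Benjamini-Hochberg adjustment (adjusted p from 4.84e-07 for PRM6 to 0.0088 for CIS1). The opposite signs rest on a weaker basis: with all tests made against a 1.5-fold change, 1 gene was left each way. The values that follow are log2 differences of the responses, HOG1-KO minus WT. Calls said to be lost are those of the difference, not of the opposite signs.

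The 8 largest of the 11 that fell in HOG1-KO and rose in WT begin with HXT1. HXT1, a glucose transporter gene, differed by -3.99, FIT1, a cell wall mannoprotein gene of siderophore uptake, by -3.25, and GPP1, a glycerol-3-phosphatase gene, by -2.69. PFK27, which makes the glycolytic activator fructose 2,6-bisphosphate, differed by -1.81. PHO23, a subunit of the Rpd3L histone deacetylase complex, differed by -1.66, and RRM3, a DNA helicase gene, by -1.61. RKR1, a ubiquitin ligase gene, differed by -1.33, and LYS20, a homocitrate synthase gene, by -1.09. The last of these was lost in 1 of 21 alternative analyses.

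The 8 largest of the 19 that rose in HOG1-KO and fell in WT begin with PRM6. PRM6 differed by 4.24 and AGA1 by 1.95, both genes of mating, and TEC1, a filamentation factor gene, by 1.91. The WT salt and basal libraries of AGA1 overlapped, as did those of TEC1. SPS4, a sporulation gene at 6.05 to 6.52 CPM in HOG1-KO salt libraries and 0.85 to 1.53 CPM in WT salt libraries, differed by 2.30. CLB1 (1.83), CDC6 (1.69) and YHP1 (1.505), the last a repressor of early cell cycle genes, belong to the cell cycle. CIS1 differed by 1.54, and was lost in 1 of the 21 alternatives.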

How the results depend on the processing

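The counts of called differences (279 higher and 320 lower in HOG1-KO) depended on which WT libraries entered and on the threshold tested. Without both WT libraries that stood apart, chosen after seeing the data, they were 611 higher and 637 lower. Basal strain differences were then 352 higher and 701 lower, and salt strain differences 1487 and 1437. The classes were then 345 for a smaller WT rise, 140 for a WT rise not called in HOG1-KO, 40 for a rise turned into a fall, 81 for a fall in HOG1-KO alone, 315 for a smaller WT fall, 103 for a WT fall not called in HOG1-KO, 40 for a fall turned into a rise, 114 for a rise in HOG1-KO alone and 38 for a larger rise. Against a 1.5-fold difference (glmTreat), 87 differences were higher and 168 lower. The HOG1-KO response was then called for 941 and 707 genes, the WT response for 1035 and 821, basal strain differences for 2 and 11, and salt strain differences for 244 and 300. The classes in the same order without that for WT rises not called were 94, 1, 1, 31, 23, 1, 23 and 6. With the replicate number within each strain as a replicate block, 148 were higher and 212 lower, with 7 rises turned into falls, 7 falls in HOG1-KO alone, 66 smaller falls, 28 falls not called in HOG1-KO, 11 falls turned into rises, 33 rises in HOG1-KO alone and 10 larger rises. The block by a number shared between the strains gave 256 and 294. With total counts alone as scaling, 447 genes were lower in HOG1-KO salt cells, 6 rises turned into falls, 9 genes fell in HOG1-KO alone and 83 falls were smaller. That scaling moved the median salt response of all genes from 0.02 to 0.19 in HOG1-KO and from 0.04 to 0.21 in WT, but that of the difference only to 0.02. DESeq2 called 64 and 71 basal strain differences and 78 WT falls not called in HOG1-KO.

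Leaving out each library in turn gave 196 to 589 higher and 242 to 407 lower differences, the highest of both without WT salt replicate 2. The response was called as a rise for 1492 to 1986 and a fall for 1282 to 1837 genes in HOG1-KO, and for 1625 to 1904 and 1507 to 1942 in WT. Close responses numbered 1216 to 1782. Basal strain differences ranged over 8 to 49 and 14 to 75, and salt strain differences over 552 to 1200 and 509 to 1007. In the class order above the ranges were 156 to 246, 62 to 95, 4 to 21, 8 to 47, 88 to 284, 40 to 116, 12 to 41, 36 to 112 and 11 to 35. Among the named genes 120 differences were called, of which 81 kept their call in every alternative run, 21 in number except for PDC6, PHM6, SIP18 and SPS4 with 20 each; none changed sign with its call. The cause of these shifts was not tested. With 3 libraries a group, differences of size 1 on the log2 scale were often missed in simulated data, so a difference not called is not shown to be absent.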

Other observations

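Some cell wall, iron, phosphate and sporulation genes had called differences, a part of them large. Over all tested genes the difference was called for 9.81%, with 5.24% lower and 4.57% higher. Of 23 cell wall integrity genes 4 had a lower response in HOG1-KO. CWP1, a cell wall mannoprotein gene, stood at 55.4, 39.5 and 36.3 CPM in HOG1-KO salt libraries and 9.28, 7.94 and 13.5 in HOG1-KO basal libraries, against 4014, 2086 and 4148 in WT salt libraries and 139, 261 and 173 in WT basal libraries. It was lower in HOG1-KO with and without salt, without overlap, with a basal difference of -4.22 and a difference of responses of -2.07 ± 0.42 (edgeR adjusted p = 0.00454), the call being lost with the replicate number within each strain as a block (edgeR adjusted p = 0.0541). The wall protein gene PIR3 differed by -1.77 ± 0.33, SLT2, the MAP kinase of the cell wall integrity pathway, by -1.03 ± 0.23, and PIR1 by -1.35 ± 0.35, with 3 calls lost for SLT2 and 9 for PIR1 among the 21 alternatives. Without both deviating WT libraries the list had 7 lower responses.

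Of 24 iron uptake genes 20 had no called difference. FIT1 and FRE4, a ferric reductase gene, had lower responses (-3.25 and -1.69 ± 0.28), while FTR1, the iron permease gene, fell to 264, 241 and 264 CPM in HOG1-KO salt libraries and to 121, 94.1 and 113 in WT salt libraries and had a higher response (1.12 ± 0.25), not called with the block. FRE1 had a higher response as well (1.08 ± 0.28), lost in 8 of the 21 alternatives. Of 21 phosphate genes PHO4, the transcription factor gene of the pathway, fell in WT alone and differed by 1.41 ± 0.27, and PHM6 by 2.13 ± 0.51 at 0.189 to 7.43 CPM. Of 17 genes of meiosis and sporulation, SPS100 (-2.82 ± 0.45) and IME2 (-0.94 ± 0.24) had lower and SPS4 (2.30 ± 0.36) and SMK1 (1.60 ± 0.45) higher responses; IME2 was lost in 10 of 21 alternatives and SMK1 in 11 of the 20 that could be run. The transporter gene AQR1 stood at 146, 144 and 151 CPM in HOG1-KO salt libraries and 182, 162 and 170 in HOG1-KO basal libraries, against 30.0, 14.1 and 29.4 in WT salt libraries and 127, 171 and 189 in WT basal libraries. It fell in WT alone, a difference of 2.52 ± 0.32.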
